A study of Mus musculus with 22 samples.

Results

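The inhibitory side of the hippocampus of TgproNGF#3 mice was followed through 10 genes: the GABA synthesis enzymes Gad1 and Gad2, the vesicular GABA transporter Slc32a1, and the interneuron class markers Pvalb, Calb2, Sst, Npy, Vip, Cck and Reln. Every non-control probe whose RefSeq transcript belongs to one of these genes was taken, which gave 12 probes for 10 genes, among 21176 genes named on the array and 55681 non-control probes in all. The rule used no measured value. The probes were A_52_P144310 for Gad1, A_51_P495462 for Gad2, A_52_P138926 for Slc32a1, A_55_P2114437 for Pvalb, A_52_P556433 for Calb2, A_51_P262489 for Sst, A_51_P454873 for Npy, A_51_P368313 for Vip, A_55_P1977431 for Cck and A_66_P108810 for Reln, and Slc32a1 and Pvalb had a further, dimmer one. Each of the 12 probes was well above background on all 22 arrays.

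Total RNA of the right hippocampus was hybridized to single-colour Agilent arrays, 1 mouse per array, with 4 TgproNGF#3 and 4 wild-type (WT) males at 1 month, 4 and 4 males at 3 months, and 3 and 3 females at 12 months, all of C57Bl/6xDBA/2 background. TgproNGF#3 is a single founder line in which neurons express proNGF, the precursor of nerve growth factor, with a mutated furin site that blocks its cleavage. The transgene is driven by the Thy1.2 promoter and carries an IRES and EGFP, and the WT mice lack it. Differences between ages cannot be told apart from those between slides, since every slide held 1 age, nor at 12 months from those between sexes.

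GABA is made from glutamate by 2 glutamate decarboxylases, GAD67 (Gad1) and GAD65 (Gad2), and is loaded into synaptic vesicles by the transporter VGAT (Slc32a1). All hippocampal interneurons share this machinery, while parvalbumin, somatostatin, VIP, NPY, CCK, calretinin (Calb2) and reelin divide them into classes that contact different parts of the principal neurons. The comparison asks whether this machinery differs between genotypes at each age, and whether Gad1 and Gad2 move with 1 class of interneuron. In tissue RNA, fewer cells of a type and less RNA per cell cannot be told apart. Cck, Reln, Calb2 and Npy are also made by cells other than interneurons: pyramidal neurons, Cajal-Retzius cells and mossy cells among them.

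Promoter sequences were matched for 9 of the 10 genes, from RefSeq on build GRCm38.p6, and Calb2 was not matched. The 250 bases before the start are shown for Gad1 and Gad2, for Sst, the class marker whose level varied most closely with theirs from mouse to mouse, and for the upstream of the 2 Pvalb starts, as a class marker that varied less closely with them. Capitals mark TGACG on either strand (CGTCA on the other), the short form of the cAMP response element TGACGTCA, which holds 1 copy on each strand, overlapping.

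Gad1, chr2:70561879-70562128, plus strand: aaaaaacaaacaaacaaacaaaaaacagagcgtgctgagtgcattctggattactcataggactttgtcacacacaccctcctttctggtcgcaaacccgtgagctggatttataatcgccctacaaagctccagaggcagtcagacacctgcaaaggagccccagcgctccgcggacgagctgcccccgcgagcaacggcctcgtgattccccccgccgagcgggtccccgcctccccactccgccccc
Gad2, chr2:22622077-22622326, plus strand: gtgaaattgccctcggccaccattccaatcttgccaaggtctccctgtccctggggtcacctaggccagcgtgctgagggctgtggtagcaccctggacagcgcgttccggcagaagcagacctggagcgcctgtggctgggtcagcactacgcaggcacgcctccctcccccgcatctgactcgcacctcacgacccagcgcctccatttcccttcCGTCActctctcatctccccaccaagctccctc
Sst, chr16:23890845-23891094, minus strand: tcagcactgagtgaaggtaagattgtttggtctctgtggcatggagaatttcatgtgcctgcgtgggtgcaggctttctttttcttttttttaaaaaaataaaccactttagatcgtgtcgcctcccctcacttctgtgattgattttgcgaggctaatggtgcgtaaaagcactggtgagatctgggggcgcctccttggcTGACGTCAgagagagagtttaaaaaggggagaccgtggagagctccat
Pvalb, chr15:78206401-78206650, minus strand: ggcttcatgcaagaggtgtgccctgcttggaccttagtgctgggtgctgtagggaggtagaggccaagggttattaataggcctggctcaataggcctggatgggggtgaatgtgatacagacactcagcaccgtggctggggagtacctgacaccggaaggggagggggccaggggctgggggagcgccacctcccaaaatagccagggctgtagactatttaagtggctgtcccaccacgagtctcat

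The full element TGACGTCA lay in the Sst window, 40 bases before the start, and in no other member's window. It was present in 1.55% of the 32851 promoter windows of this length in the table. The short form TGACG on either strand was present in 17.8% of them and, among the members, in Gad2, Sst, Vip and Cck. The Gad1, Slc32a1, Npy and Reln windows and both Pvalb windows held neither, which says only that these letters are not in these windows.

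At 1 month the differences of the 10 genes between genotypes lay between -0.37 and 0.28 on the log2 scale, and none passed the test. A level here is the log2 intensity of a probe relative to the 75th percentile of its array, and a Log2 FC is the mean level of TgproNGF#3 minus that of WT. By the rule of the study (limma, an unadjusted p below 0.05 and an absolute Log2 FC over 1) 0 of 10 genes were called, beside 0.57% of all 40536 probes tested. Without the fold threshold 0 of 10 had an unadjusted p below 0.05, beside 3.47% of all probes, and 0 of 10 had an adjusted p below 0.05 (0% of all probes). The Log2 FC was above 0 for 5 of the 10 genes, beside 63.8% of all probes, and its median over the 10 was 0.00, beside 0.07 over all probes.

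Gad1 stood at 2.88, 2.89, 2.98 and 2.61 in the 4 TgproNGF#3 mice of 1 month and at 3.08, 2.71, 2.47 and 2.73 in the 4 WT mice, a Log2 FC of 0.09 (SE 0.18). Sst, the neuropeptide of dendrite-targeting interneurons, stood at 3.56, 3.72, 3.62 and 3.67 against 3.90, 3.70, 3.42 and 3.62, a Log2 FC of -0.02 (SE 0.16). The groups overlapped for both genes, and for all 10, while 3.32% of all probes had groups apart. The largest differences in either direction were those of Vip, at -0.37 (SE 0.26, limma adjusted p = 1.00), Reln, at -0.30 (SE 0.18, adjusted p = 1.00), and Calb2, at 0.28 (SE 0.38, adjusted p = 1.00). Gad2, Slc32a1, Pvalb, Npy and Cck lay between -0.28 and 0.05. The 1-month arrays were taken as pairs by their replicate numbers, although no label states a pairing. Vip was lower in TgproNGF#3 mice in 4 of 4 pairs, by differences of -0.64, -0.36, -0.32 and -0.17. It was the 1 gene of the 10 with the same sign in every pair. The exact permutation p with the pairs kept was 0.125, the smallest it can give, and with the replicate block limma gave an unadjusted p of 0.0686 and an adjusted p of 0.912.

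At 3 months Gad1, Gad2, Sst and Reln stood higher in TgproNGF#3 mice by 0.39 to 0.79 on the log2 scale, while Pvalb, Slc32a1 and Calb2 differed by 0.04 or less and Cck stood lower by 0.21. This was the age at which most probes moved, predominantly downwards: 6.76% of 33593 probes were called by the rule of the study, 0.643% higher and 6.12% lower, and the median Log2 FC over all probes was -0.12. Of the 10 genes 0 were called. An unadjusted p below 0.05 was reached by 2 of 10, Gad1 and Sst, both higher, beside 27.2% of all probes (7.48% higher and 19.7% lower). An adjusted p below 0.05 was reached by 0 of 10, beside 8.43% of all probes. The Log2 FC was above 0 for 7 of 10 genes, beside 37.3% of all probes, and its median over the 10 was 0.20.

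Gad1 stood at 2.03, 2.45, 2.70 and 2.33 in the TgproNGF#3 mice of 3 months and at 1.95, 2.00, 1.36 and 1.69 in the WT mice. Every TgproNGF#3 mouse lay above every WT mouse, the lowest of one group and the highest of the other being close together. The Log2 FC was 0.63 (SE 0.20, 95% confidence interval 0.19 to 1.07, limma unadjusted p = 0.010, adjusted p = 0.078), and the exact permutation test over the 8 mice gave a two-sided p of 0.0286, the smallest it can give. Gad1 was the 1 gene of the 10 whose groups did not overlap at this age, beside 20.3% of all probes (5.78% higher). With the percentile taken over all spots its adjusted p was 0.0425 and with 1 fit of all 22 arrays it was 0.0316, against a range of 0.0316 to 0.195 over all alternatives.

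Gad2 stood at 1.41, 1.65, 2.19 and 1.37 against 1.31, 1.50, 0.96 and 1.26. TgproNGF#3 replicate 3 was far above the rest, as it was the highest for Gad1, and the groups overlapped. The Log2 FC was 0.39 (SE 0.21, limma unadjusted p = 0.088, adjusted p = 0.253), and without TgproNGF#3 replicate 3 it was 0.22 (unadjusted p = 0.234). The third component of the pathway, Slc32a1, stood at 3.15, 3.20, 3.13 and 3.15 against 3.07, 3.26, 3.40 and 3.07, a Log2 FC of -0.04 (SE 0.13, 95% confidence interval -0.33 to 0.25). Its TgproNGF#3 values lay within the range of the WT values, and the sign of so small a difference turned under 4 alternative settings of scaling or spot filtering.

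Sst stood at 2.88, 3.87, 3.68 and 2.84 in the TgproNGF#3 mice of 3 months and at 2.78, 2.92, 1.82 and 2.60 in the WT mice. Replicates 2 and 3 of TgproNGF#3 were well above the other TgproNGF#3 mice, WT replicate 3 was the lowest, and the groups overlapped. The Log2 FC was 0.79 (SE 0.31, 95% confidence interval 0.09 to 1.48, limma unadjusted p = 0.030, adjusted p = 0.14, exact permutation p = 0.0857). The unadjusted p rose to 0.085 without TgproNGF#3 replicate 2, to 0.0773 without TgproNGF#3 replicate 3 and to 0.0844 without WT replicate 3, with Log2 FCs of 0.60, 0.67 and 0.55. In 1 fit of all 22 arrays the adjusted p was 0.0454.

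Pvalb, the calcium-binding protein of fast-spiking interneurons, stood at 1.64, 2.14, 1.85 and 1.79 against 2.35, 1.42, 1.71 and 2.08 at 3 months. The TgproNGF#3 values lay within the WT range, and the Log2 FC was -0.04 (SE 0.22, 95% confidence interval -0.52 to 0.45). The interval holds differences as large as that of Gad2. The dimmer Pvalb probe (A_55_P2059040) gave 0.11 (SE 0.17), the opposite sign, and the sign of the brighter probe turned under the same 4 settings.

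The other peptide markers were closer between genotypes. Npy gave a Log2 FC of 0.24 (SE 0.27), which was 0.02 without TgproNGF#3 replicate 2 and 0.04 without WT replicate 3. Vip gave 0.15 (SE 0.19), which was 0.04 without TgproNGF#3 replicate 1, 0.10 without TgproNGF#3 replicate 4 and 0.33 without TgproNGF#3 replicate 3. Cck, the peptide of a further class of basket cells, gave -0.21 (SE 0.17). Cck stood at 5.50, 5.87, 5.62 and 5.33 against 6.09, 5.65, 5.68 and 5.74, with overlapping groups. Reln, a secreted glycoprotein, stood at -3.45, -3.64, -4.41 and -5.35 against -5.50, -4.41, -4.70 and -5.27, a Log2 FC of 0.76 (SE 0.42, limma unadjusted p = 0.0996, adjusted p = 0.27). TgproNGF#3 replicate 4 was the lowest of its group by far, and without it the Log2 FC was 1.14 (unadjusted p = 0.00639, adjusted p = 0.0581), past the rule of the study. Calb2 gave 0.02 (SE 0.20), with a sign that turned under the normexp correction (a model-based background correction).

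At 12 months 9 of the 10 genes stood higher in TgproNGF#3 mice, beside 51.2% of all probes, and the median Log2 FC over the 10 was 0.48, beside 0.01 over all 34064 probes. Vip and Sst differed most. By the rule of the study 0 of 10 genes were called, beside 1.3% of all probes. An unadjusted p below 0.05 was reached by 3 of 10 (Vip, Sst and Gad1, all higher), beside 9.05% of all probes and 3.11% higher. An adjusted p below 0.05 was reached by 0 of 10 (0% of all probes), and the smallest adjusted p of any probe was 0.177.

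Vip, the peptide of interneurons that contact other interneurons, stood at -0.62, -0.96 and -0.47 in the TgproNGF#3 mice and at -1.80, -1.91 and -1.02 in the WT mice of 12 months, a Log2 FC of 0.90 (SE 0.26, 95% confidence interval 0.28 to 1.51, limma unadjusted p = 0.00998, adjusted p = 0.549). Sst stood at 3.72, 3.52 and 3.94 against 2.38, 2.80 and 3.55, a Log2 FC of 0.82 (SE 0.29, unadjusted p = 0.0253, adjusted p = 0.549). Gad1 stood at 2.54, 2.36 and 2.96 against 1.66, 2.08 and 2.37, a Log2 FC of 0.58 (SE 0.23, unadjusted p = 0.0406, adjusted p = 0.549). The groups lay apart for Vip and overlapped for Sst and Gad1, where WT replicate 3 stood among the TgproNGF#3 mice. Exact permutation of 3 against 3 mice cannot give a two-sided p below 0.1, and it gave 0.1 for Vip and 0.2 for Sst and for Gad1.

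The remaining differences at 12 months were smaller. Gad2 stood at 1.79, 1.63 and 2.09 against 0.97, 1.29 and 1.81, a Log2 FC of 0.48 (SE 0.24, limma adjusted p = 0.563). Slc32a1 stood at 3.70, 3.66 and 3.87 against 2.97, 3.102 and 3.71, a Log2 FC of 0.48 (SE 0.21, adjusted p = 0.549). For both genes WT replicates 1 and 2 lay below all TgproNGF#3 mice and WT replicate 3 lay among them. Npy gave 0.51 (SE 0.23), Pvalb 0.34 (SE 0.16) and Cck 0.32 (SE 0.15), while Calb2 gave 0.05 (SE 0.25) and Reln -0.05 (SE 0.28).

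Pvalb stood at 2.16, 2.15 and 2.43 against 1.87, 1.74 and 2.11, and Cck at 6.34, 6.26 and 6.28 against 5.85, 5.88 and 6.18. Both had groups that lay just apart, but those of the dimmer Pvalb probe overlapped (Log2 FC 0.26, SE 0.17). The dimmer Slc32a1 probe gave 0.19 (SE 0.14) at this age. With Vip this made, on the brighter probes, 3 of 10 genes whose groups did not overlap, all higher, beside 15.5% of all probes and 7.42% higher.

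**Figure D1:**
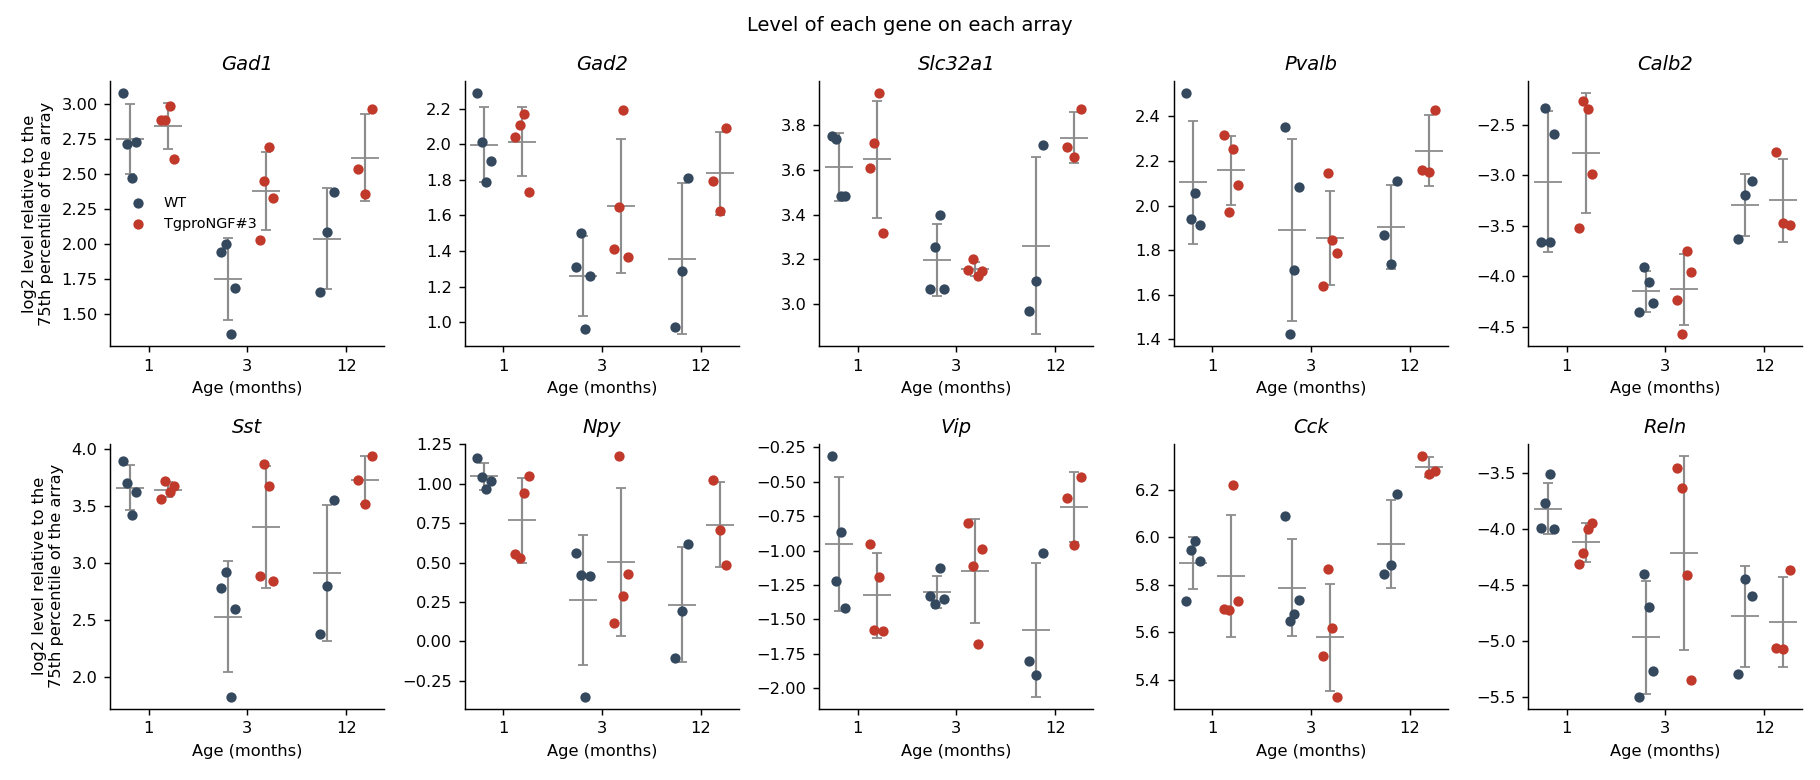
Level of each of the 10 genes (log2, relative to the 75th percentile of the array) against age in months. Each point is 1 mouse, WT dark and TgproNGF#3 red, and the grey bars give the mean and SD of each group of 4 mice (3 at 12 months). Gad1 is apart between genotypes at 3 months and Vip, Pvalb and Cck at 12 months, and the genes have different axis ranges.

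One WT mouse carried weight at 12 months. WT replicate 3 was the highest of the 3 WT mice for 9 of the 10 genes, beside 38.6% of 32474 probes. Without it 8 of 10 genes had an unadjusted p below 0.05, and Sst (Log2 FC 1.14, limma adjusted p = 0.0799) and Vip (1.17, adjusted p = 0.0616) passed the rule of the study. The number with an unadjusted p below 0.05 was 1 without TgproNGF#3 replicate 1, without WT replicate 1 or without WT replicate 2, and 2 without TgproNGF#3 replicate 3. Vip also passed the rule without TgproNGF#3 replicate 2 (1.03) and under median scaling (1.04) and quantile normalization (1.02). Only WT replicate 3 shared a row of the slide with the TgproNGF#3 arrays, so that a fit with the array row as a block sets this mouse alone against the TgproNGF#3 mice. Such a fit gave a Log2 FC of 0.34 for Vip, 0.17 for Sst, 0.24 for Gad1 and 0.02 for Gad2, which describes WT replicate 3 and is no test of the row. The row and this mouse cannot be told apart.

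**Figure D2:**
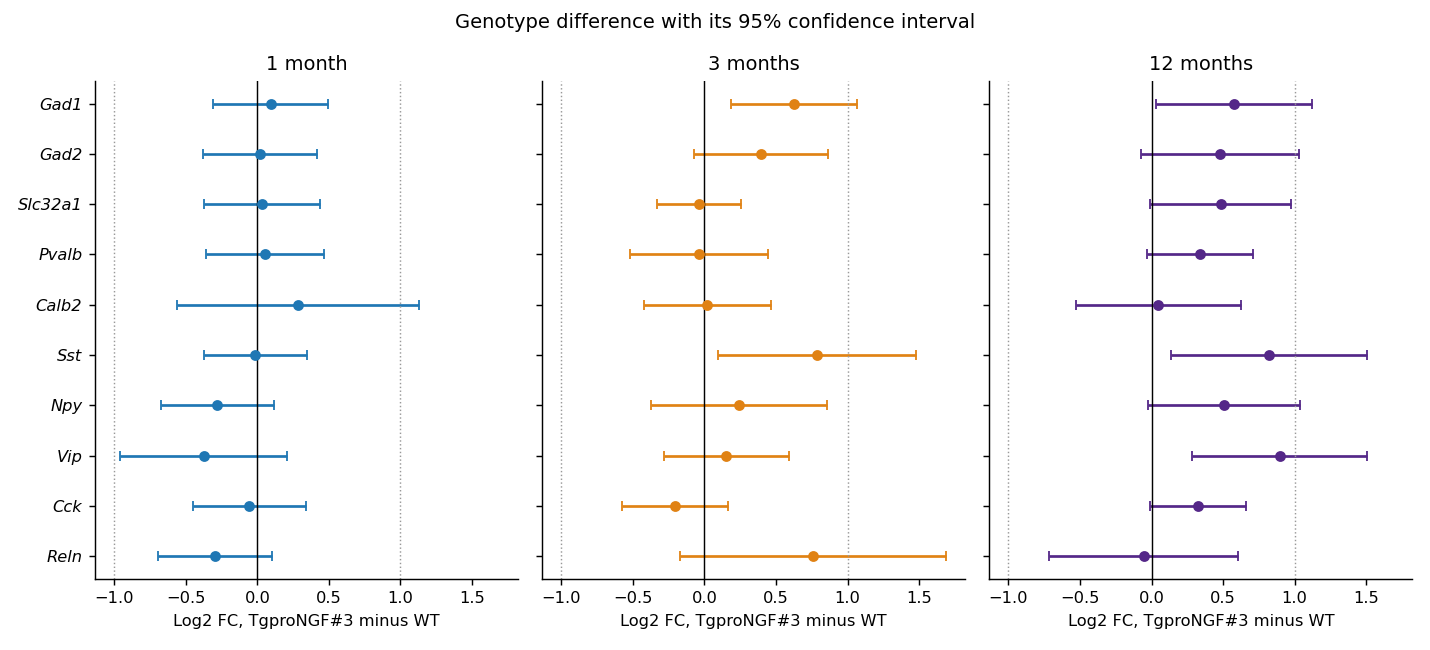
Log2 FC (TgproNGF#3 minus WT) of each gene at 1, 3 and 12 months, with the 95% confidence interval from limma, and dotted lines at the fold threshold of the study. The intervals leave out 0 for Gad1 and Sst at 3 months and for Gad1, Sst and Vip at 12 months, and no gene lies beyond the dotted lines.

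The change of the genotype difference with age was tested in 1 fit of all 22 arrays. An adjusted p below 0.05 was reached by 0 of 10 genes in each pair of ages, beside 2.87% of 32420 probes between 3 and 1 month, 4.52% between 12 and 3 months and 0% between 12 and 1 month. An unadjusted p below 0.05 was reached by 2, 2 and 3 of the 10 in the same order, beside 14.9%, 18.5% and 5.97% of the probes. The difference of Sst was larger by 0.80 (SE 0.37) at 3 months than at 1 month, at an unadjusted p of 0.042 and an adjusted p of 0.308 (limma). That of Reln was larger by 1.06 (SE 0.46, adjusted p = 0.266), and without TgproNGF#3 replicate 4 of 3 months by 1.44 (adjusted p = 0.0461). That of Vip was larger by 1.27 (SE 0.37) at 12 months than at 1 month, at an unadjusted p of 0.00246 and an adjusted p of 0.495. For Gad1 the difference was larger by 0.54 (SE 0.27) at 3 months than at 1 month (adjusted p = 0.372) and about equal at 12 and 3 months (-0.05, SE 0.30).

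Whether Gad1 and Gad2 moved with 1 class was first asked within arrays. The log2 difference between a marker and Gad1 or Gad2 on the same array does not depend on how the array is scaled. Over 51 such comparisons (8 genes against Gad1 and Gad2 and Gad2 against Gad1, at 3 ages) none had an adjusted p below 0.05, the smallest being 0.486, and 1 had an exact permutation p below 0.05. At 4 mice against 4 the smallest possible p is 0.0286, so that an adjusted p below 0.05 would have needed 30 of the 34 comparisons at 1 and 3 months at that minimum. The pairs of 1 month were not kept here, and with them kept only the 17 comparisons of 3 months could reach it. The correction over this family could hardly be passed, and the adjusted values say little about any single pair. At 3 months Sst minus Gad1 was 0.94 ± 0.38 (SD, n = 4) in TgproNGF#3 and 0.78 ± 0.21 in WT mice, 0.16 apart (exact permutation p = 0.429). Against Gad2, Sst stood 0.39 higher in TgproNGF#3 mice (exact permutation p = 0.0571). Reln minus Gad1 stood 0.13 higher (exact permutation p = 0.857), a sign that the normexp correction turned (-0.29).

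Relative to Gad1, 6 of the 8 other genes stood lower in TgproNGF#3 mice of 3 months, all but Sst and Reln, and 7 of 8 after the normexp correction, which turned Reln. The Log2 FC of Slc32a1 and of Pvalb was itself -0.04, so that these gaps carry the difference of Gad1. Gad1 stood 0.63 higher and the median Log2 FC over all probes was -0.12, so that most probes stood lower relative to Gad1 as well. Their exact share was not computed. Slc32a1 minus Gad1 was 0.78 ± 0.28 (SD, n = 4) in TgproNGF#3 mice and 1.45 ± 0.41 in WT mice, 0.67 lower (exact permutation p = 0.0571, adjusted p = 0.486). Pvalb minus Gad1 was -0.52 ± 0.24 against 0.14 ± 0.48, 0.66 lower (exact permutation p = 0.114). Calb2 minus Gad1 was 0.61 lower (exact permutation p = 0.0857, and 0.0286 after the normexp correction, with 0.74 lower), Vip minus Gad1 0.47 lower (exact permutation p = 0.286) and Npy minus Gad1 0.39 lower (exact permutation p = 0.2). Cck minus Gad1 was 3.20 ± 0.28 against 4.04 ± 0.28, 0.83 lower, and was the only pair whose unadjusted exact permutation p was 0.0286 without that correction, with groups that did not overlap. Groups that did not overlap were found at this age for 37.5% of 29791 probes set against Gad1. At 12 months the differences of Slc32a1, Pvalb and Cck from Gad1 were -0.10, -0.24 and -0.25 (exact permutation p of 0.5, 0.4 and 0.5).

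At 12 months 4 of the 17 pairs had groups that did not overlap, each at an exact permutation p of 0.1, the smallest that 3 against 3 mice allow. Sst minus Gad2 was 1.89 ± 0.04 (SD, n = 3) in TgproNGF#3 and 1.55 ± 0.17 in WT mice, 0.34 higher, while Sst minus Gad1 was 0.24 higher with overlapping groups (exact permutation p = 0.3). Vip minus Gad2 was 0.42 higher in TgproNGF#3 mice. Reln stood lower, with a difference of -0.63 relative to Gad1 and of -0.53 relative to Gad2. Groups that did not overlap were found at this age for 48.6% of 31760 probes set against Gad1 and for 20.1% set against Gad2.

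**Figure D3:**
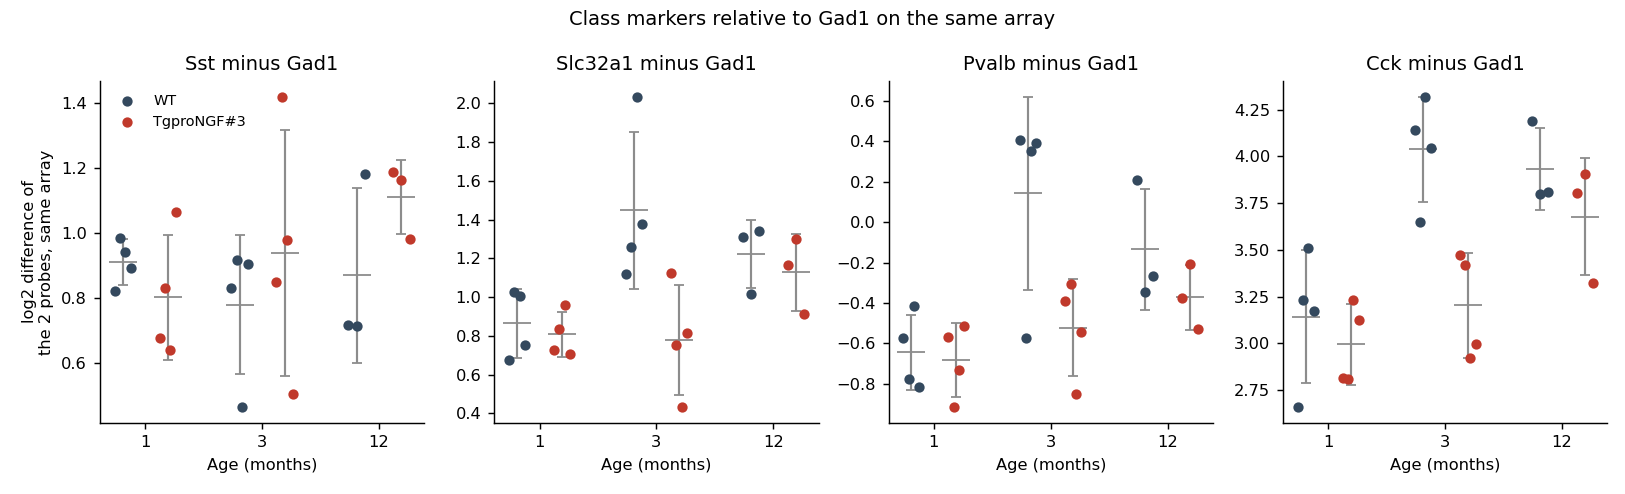
Log2 difference between a marker probe and the Gad1 probe on the same array, for Sst, Slc32a1, Pvalb and Cck, against age in months. Points are single mice, WT dark and TgproNGF#3 red, and bars give mean and SD. At 3 months the TgproNGF#3 mice lie below the WT mice for Cck and mostly below for Slc32a1 and Pvalb, and overlap with them for Sst.

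Mouse to mouse variation within the groups was then compared, as the deviation of each array from its group mean over 22 arrays. The permutations were made within groups and did not keep the pairs of 1 month. Gad2 varied with Gad1 at a Pearson's r of 0.914 and a Spearman's rho of 0.909 (permutation p = 1e-05 for both, the smallest that 100000 resamples can give, adjusted p = 0.00017 over 17 relations). It was the gene most like Gad1 among 14527 genes with a value on all arrays, and Gad1 was the gene most like Gad2. Within 1, 3 and 12 months r was 0.962, 0.855 and 0.957, and it was 0.894 without the 2 arrays farthest from the median of Gad1.

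Sst was the one class marker whose variation passed the correction with either enzyme. With Gad1 its r was 0.818 and its rho 0.822 (permutation p = 8e-05 and 0.00013, adjusted p = 0.00068 and 0.000907), with 0.72, 0.852 and 0.9 within 1, 3 and 12 months and 0.745 without the 2 farthest arrays. With Gad2 its r was 0.815 and its rho 0.826 (permutation p = 0.00043 and 0.00016, adjusted p = 0.00244 and 0.000907), with 0.644, 0.785 and 0.985 within the ages and 0.778 without the 2 farthest arrays. Arrays share their scaling, and the median r over all genes was 0.238 with Gad1 and 0.271 with Gad2. As many as 45 genes other than Sst had a higher r with Gad1, and 56 with Gad2.

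Slc32a1 followed with an r of 0.572 with Gad2 (rho 0.521, permutation p = 0.0158 and 0.0289, adjusted p = 0.0673 and 0.123) and 0.482 with Gad1 (rho 0.462, permutation p = 0.0543 and 0.0607, adjusted p = 0.185 and 0.206). Pvalb gave 0.426 with Gad1 (rho 0.45, permutation p = 0.0968 and 0.0744, adjusted p = 0.274 and 0.211) and 0.322 with Gad2 (rho 0.413, permutation p = 0.171 and 0.0952, adjusted p = 0.363 and 0.231). Taken by genotype (11 arrays each), the r of Sst with Gad1 was 0.642 in TgproNGF#3 and 0.937 in WT mice, and that of Pvalb 0.604 and 0.351, so that Sst and Pvalb were close in TgproNGF#3 mice and far apart in WT mice. With Gad2 the values were 0.663 and 0.947 for Sst and 0.373 and 0.311 for Pvalb. The difference between the r of Sst and that of Pvalb was not tested, nor that between genotypes. Within ages Slc32a1 was far from steady, with r of 0.749, -0.438 and 0.83 with Gad1. The r of Npy, Cck, Calb2, Vip and Reln with Gad1 lay between 0.0229 and 0.406, and none had an adjusted p below 0.05. The pooled value of Npy, 0.406, joined an r of 0.863 in WT and of -0.0665 in TgproNGF#3 mice (0.832 and -0.192 with Gad2), so that in WT mice Npy lay nearer to Sst than to the other markers.

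Scaling bears on this contrast. With the arrays scaled to their median the r of Sst with Gad1 was 0.849, but 10 of the 17 relations then passed the correction, among them Slc32a1 (0.683 with Gad1), Pvalb (0.637), Cck (0.551) and Npy (0.538), and the median r over all genes was itself 0.522. The number of genes with a higher r than Sst was then 165 with Gad1 and 137 with Gad2.

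**Figure D4:**
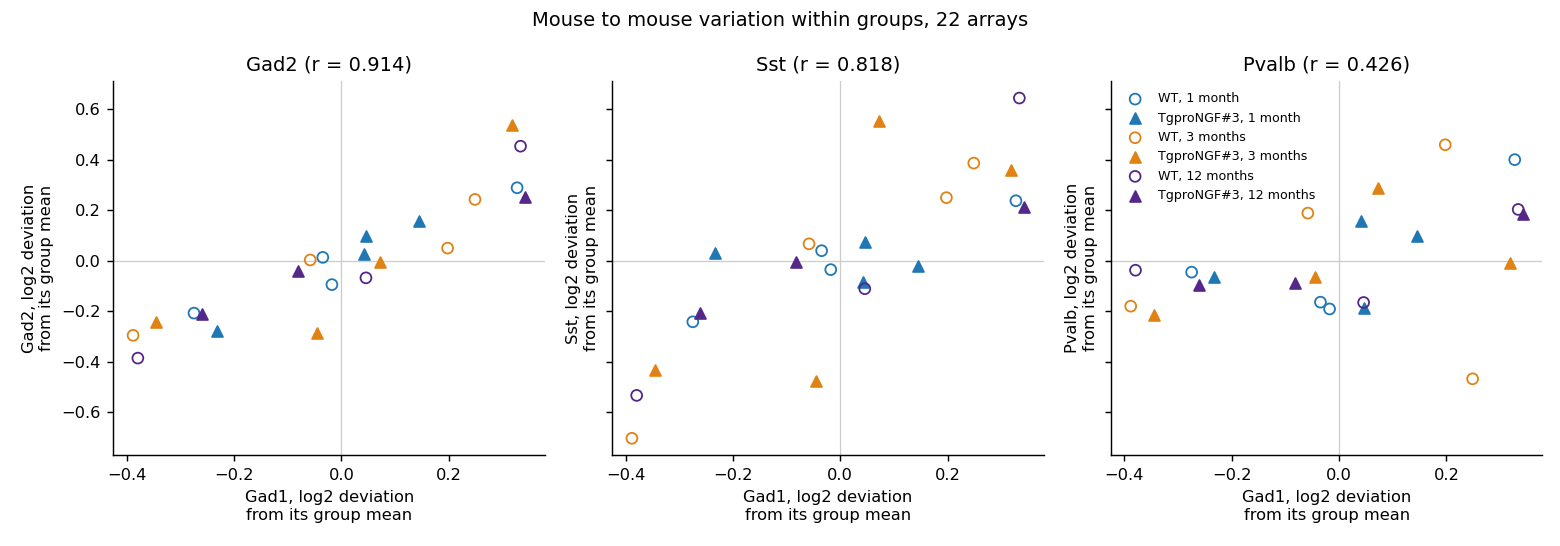
Deviation of Gad2, Sst and Pvalb from their group means (log2) against that of Gad1, 1 point per array, coloured by age, with WT as open circles and TgproNGF#3 as triangles. The points lie along a line for Gad2 (r = 0.914) and Sst (r = 0.818) and are more scattered for Pvalb (r = 0.426).

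**Figure D5:**
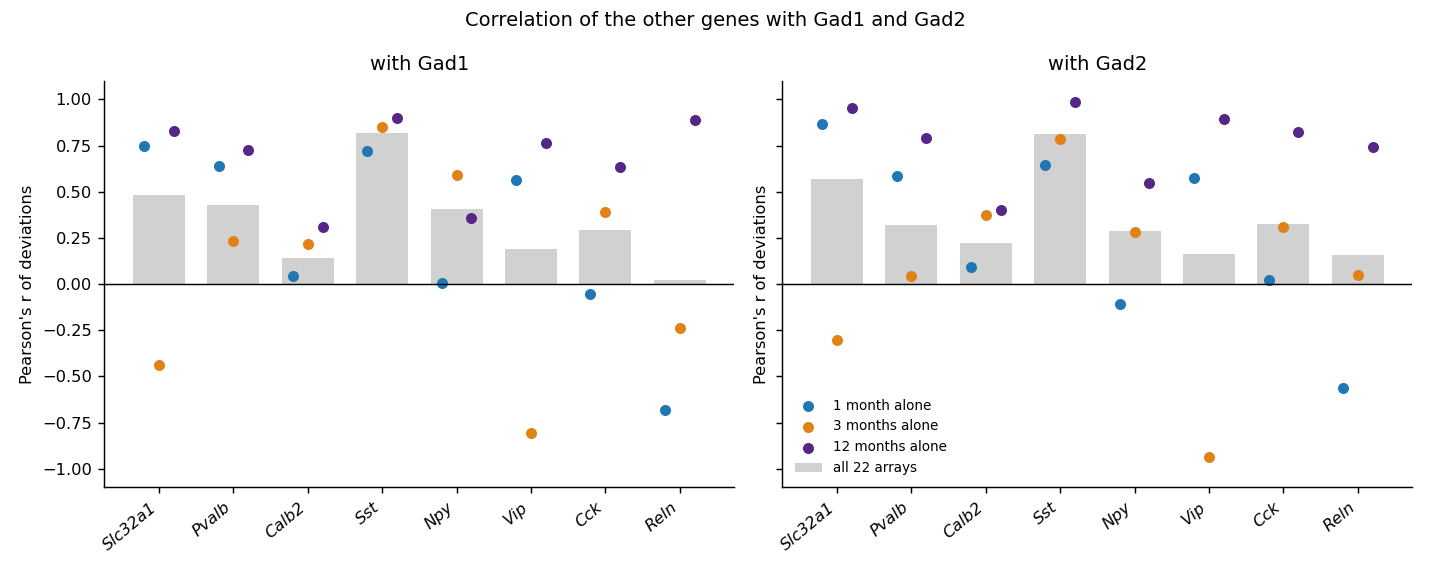
Pearson's r of the deviations of 8 genes with those of Gad1 (left) and Gad2 (right). Grey bars are all 22 arrays and points are each age alone, with 8 arrays at 1 and 3 months and 6 at 12 months. Sst is the only gene whose r lies above 0.6 at all 3 ages with both enzymes, and Slc32a1, Vip and Reln are among those that change sign between ages.

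Besides each other, the genes most like Gad1 were Elovl6 (r = 0.907), Bicral (0.899), Ttc41 (0.898) and Mmgt1 (0.894), and those most like Gad2 were Mmgt1 (0.908), Washc4 (0.903), B630019K06Rik (0.896) and Ghrh (0.894). Their Log2 FCs at 3 months lay between -0.16 and 0.36. These are descriptions over the same 22 arrays.

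The partners of these genes were read from fixed lists, over the same fit. Of 9 genes of GABA metabolism and uptake, 2 were called, both lower at 12 months, beside 0.992% of all probes called lower: the GABA and betaine transporter Slc6a12 (Log2 FC -1.64, SE 0.53, limma adjusted p = 0.549) and Slc6a13 (-1.42, SE 0.35, adjusted p = 0.549). Slc6a13 is also a leptomeningeal gene. Another of the 5 leptomeningeal markers, the organic anion transporter Slc22a6, was called lower at 12 months as well (-1.27, SE 0.17, limma adjusted p = 0.349), with groups apart. At 3 months both gave positive Log2 FCs, 0.99 for Slc22a6 (adjusted p = 0.0816) and 0.77 for Slc6a13 (adjusted p = 0.102). The other 3 markers, Dcn, Lum and Igf2, gave 0.13, -0.25 and -0.65 at 12 months (limma adjusted p of 0.857, 0.765 and 0.681). The summed level of the 5 leptomeningeal markers ranged from 2.53 to 3.32 in TgproNGF#3 mice and from 2.56 to 3.15 in WT mice at 12 months, a sum led by Dcn, the brightest of them, and their part in the difference was not tested. None of the 9 was called at 1 or 3 months, with unadjusted p below 0.05 for 0 and 3 of them, beside 3.47% and 27.2% of all probes, so that the count at 3 months was near the background.

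Of 14 transcription factors of interneurons, Dlx1, which interneuron progenitors need to mature, rose at 3 months (Log2 FC 0.77, SE 0.18, limma adjusted p = 0.035), from -2.27 in WT to -1.50 in TgproNGF#3 mice. It was the 1 of 14 genes with an adjusted p below 0.05, beside 8.43% of all probes, which is near the background. Dlx5, of the same family, was called lower at that age (-1.55, SE 0.44, adjusted p = 0.061), 1 of 14 genes beside 6.12% of all probes, which is near the background. The list's median was 0.06 at 3 months, beside -0.12 over all probes, with 2 members up and 2 down at an unadjusted p below 0.05, beside 7.48% and 19.7% of all probes. At 12 months it was 0.30, with 12 of 14 above 0 and 2 up, beside 51.2% and 3.11% of all probes.

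Among further genes of each class, Kcnc1, a potassium channel of fast-spiking cells, fell by 1.87 at 3 months (SE 0.27, limma adjusted p = 0.00499), from 0.66 in WT to -1.20 in TgproNGF#3 mice. It was the 1 of 8 tested genes of its list that was called, beside 6.12% of all probes called lower. It was also the 1 of 8 with an adjusted p below 0.05, beside 8.43% of all probes. Of the 8 members of the parvalbumin list tested at this age, 2 were up, Acan, the aggrecan of perineuronal nets (Log2 FC 0.55, SE 0.17, adjusted p = 0.0759, groups apart), and Pthlh (0.63, SE 0.19, adjusted p = 0.0669), and Kcnc1 alone was down at an unadjusted p below 0.05 (7.48% and 19.7% of all probes), and the list's median was 0.05. At 12 months 2 of 8 were up, the potassium channel subunits Kcnc2 (Log2 FC 0.70, SE 0.25) and Kcns3 (0.45, SE 0.15), and 1 was down, Acan (-0.42, SE 0.15), opposite in sign to 3 months, each with groups apart and a limma adjusted p of 0.549. The shares over all probes were 3.11% up and 5.94% down, and the list's median was 0.37. These 4 genes were singled out after their values were seen. Lamp5, a marker of neurogliaform cells and of neocortex, rose by 0.95 at 3 months (SE 0.17, adjusted p = 0.0116). It was the 1 of 7 neurogliaform genes with an adjusted p below 0.05, beside 8.43% of all probes. The 4 neocortical markers went both ways, with 2 of 4 above 0. Another of them was called lower (Log2 FC -1.60), also with an adjusted p below 0.05, beside 6.12% of all probes called lower. The summed level of the 4 neocortical markers, Lamp5 included, ranged from 0.15 to 0.95 in TgproNGF#3 and from 0.26 to 0.47 in WT mice at that age. Crhbp, made by somatostatin cells, was called higher at 12 months (Log2 FC 1.04, SE 0.31, adjusted p = 0.549), beside 0.311% of all probes. The somatostatin list had 3 of 8 tested members up and 0 down at an unadjusted p below 0.05 at 12 months (3.11% and 5.94% of all probes) and 1 up and 2 down at 3 months (7.48% and 19.7%), where its median was 0.06. The CCK and VIP list had no call, with 10 of 10 members above 0 at 12 months and 3 of 10 at 3 months, beside 51.2% and 37.3% of all probes.

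The receptors of the peptides and of reelin had 0 calls in 13 genes at any age, beside 0.57%, 6.76% and 1.3% of all probes at 1, 3 and 12 months. At 12 months 13 of 13 stood above 0 with a median of 0.28, beside 51.2% of all probes, and 1 reached an unadjusted p below 0.05, beside 9.05%. At 3 months the median was 0.12, with 2 up and 2 down at that threshold, beside 7.48% and 19.7%.

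Summed levels of other cells' markers went in both directions at 3 months and were not tested. Of all single probes 20.3% had groups apart at this age, and the median Log2 FC was -0.12. The summed oligodendrocyte markers (4 genes) stood higher in TgproNGF#3 mice, at 5.76 to 6.03 against 5.27 to 5.76, just overlapping. Those of the leptomeninges (5 genes) lay at 2.08 to 2.98 against 1.89 to 2.68. The sums that follow stood lower. The summed astrocyte markers (4 genes) ranged from 2.81 to 3.04 in TgproNGF#3 and from 3.08 to 3.34 in WT mice, those of mossy cells (4 genes, Calb2 included) from -2.62 to -2.05 and from -2.02 to -1.66, and those of CA pyramidal neurons (6 genes) from 3.52 to 4.00 and from 3.98 to 4.18. Of the 6 CA pyramidal markers, 3 were lower with groups apart: Fibcd1 (Log2 FC -0.93), Spink8 (-0.78) and Grik4 (-0.64). Their limma adjusted p were 0.0094, 0.025 and 0.047, beside 8.43% of all probes with an adjusted p below 0.05. Bok, Homer3 and Wfs1 gave -0.29, -0.15 and 0.14. No astrocyte marker had an adjusted p below 0.05. Of the 3 mossy cell markers tested, Csf2rb2 alone was lower (Log2 FC -0.85, SE 0.17, limma adjusted p = 0.0177), while Calb2 gave 0.02 and Drd2 0.03. At 12 months the summed astrocyte markers lay at 3.19 to 3.33 against 3.37 to 3.55. The summed microglia markers (4 genes) lay at 3.57 to 3.64 against 3.66 to 3.84. Both sums were apart, as were 15.5% of all single probes. In each of these lists 1 of 4 genes stood higher, and no gene had an adjusted p below 0.05 (limma). An unadjusted p below 0.05 was reached by 1 of 4 astrocyte markers, lower, and by 0 of 4 microglia markers. Of the 5 granule neuron markers, C1ql2 was called lower at that age, beside 0.992% of all probes (Log2 FC -1.05, SE 0.44, limma adjusted p = 0.549, groups overlapping), and Calb1 gave 0.73 (SE 0.22, adjusted p = 0.549, groups apart). The 5 choroid plexus markers varied between mice of both genotypes, from 2.55 to 7.01 in TgproNGF#3 and from 6.12 to 6.71 in WT mice at 3 months. No marker of these lists was below background on all arrays, granule and CA pyramidal neurons of the hippocampus included, and the part of these cells in the differences of Gad1, Gad2 and Sst was not tested.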

How the data were processed

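The authors deposited the background-subtracted Cy3 intensity of every spot from Agilent Feature Extraction 10.7.3.1, and a table of log2 values aligned to the 75th percentile of each array, which served here only as an alternative. The submitters' processing notes also name limma. Spots were dropped when they were controls, outliers or not well above background. Log2 intensities were set relative to the 75th percentile of the remaining spots and averaged per probe. Each age was fitted alone with limma 3.58.1 (R 4.3.3, lmFit, eBayes), for all probes that had 2 or more values per group, with Benjamini-Hochberg adjustment over them. The number of arrays limits the precision. The columns without a sample numbered 0.

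Symbols came from RefSeq transcripts for 28067 probes (50.4%), 41 of them through an older annotation of the array. Single values were tested by exact permutation over mice, two-sided, and correlations by 100000 permutations within groups (Python 3.11.15, numpy 2.4.6). The genes and lists were chosen with earlier results of these data known. All 10 genes are named, and the 5 genes most like Gad1 and Gad2. From the lists of related genes those called or with an adjusted p below 0.05 are named, at most 4 per list and age. The lists of cell markers were not held to that rule, and not all of their genes that pass it are named.

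Replicate numbers were taken to pair the arrays of 1 month, although no label states a pairing. Same-numbered arrays lay in 1 row of the slide, but each row held 2 replicate numbers of each genotype. The r of their residuals was 0.511, 0.272, 0.191 and 0.208 over 36103 probes. Arrays of different numbers were not compared in this way. With the pairs kept, no exact two-sided p below 0.125 is possible. The block changed no call of the 10 genes at that age. The alternatives were dim or outlier spots kept, probes above background on every array, other percentiles or scalings, quantile normalization, normexp (offset 50, on median signals, although planned on means), the deposited log2 values, 1 fit of 22 arrays, a gene's probes averaged, the replicate number or array row as a block, and each mouse left out. The procedure was tested on simulated data.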

Additional observations from a re-analysis of the deposited data

Results flagged for a closer look

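In 40 groups of 4 mice, 2 values lay far from the rest of their group by Dixon's criterion (95% critical value for the gap over the range), and chance flags about 1 group in 20. Npy stood at -0.35 in 1 WT mouse of 3 months, replicate 3, while the others lay between 0.42 and 0.56 (gap over range 0.84). Cck stood at 6.22 in 1 TgproNGF#3 mouse of 1 month, replicate 3, while the others lay between 5.69 and 5.73 (gap over range 0.925). No gene of the 10 had a genotype difference that differed between ages at an adjusted p below 0.05 (limma).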

How the results depend on the processing

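The call of 0 of 10 genes by the rule of the study held at 1 month under every alternative, at 3 months except when single mice were left out (0 to 1, Reln without TgproNGF#3 replicate 4), and at 12 months except under median scaling (1), quantile normalization (1) and with single mice left out (0 to 2, Sst and Vip). With a replicate block it was 0 at each age. Same-numbered arrays also shared a row of the slide at 3 months, but at 12 months only those of replicate 3 did. The r of their residuals lay between -0.356 and 0.05 at these ages. With the replicate block there, 2 and 5 genes had an unadjusted p below 0.05 (limma), in place of 2 and 3. At 12 months that count was 8 under median scaling, 7 under normexp and 0 with the array row as a block, which leaves 1 WT mouse. Between 3 and 1 month the count of genes with an adjusted p below 0.05 was 0 to 1 with single mice left out. Of the 51 differences within arrays, 1 had an exact p below 0.05, 2 did after normexp and 0 to 4 with single mice left out. Of the 17 correlations 3 passed the correction, 10 did under median scaling, 2 within 1 month alone, and 0 within 3 months alone and 0 within 12 months alone. The cause of these changes was not tested. The median Log2 FC over all probes moved from 0.01 to 0.15 under median scaling and 0.11 under quantile normalization at 12 months, and to -0.12 with dim spots kept. At 3 months it moved from -0.12 to 0.01 with dim spots kept or the percentile over all spots.

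Most signs that turned were of differences near 0. At 1 month Gad2 gave -0.048 with dim spots kept or the percentile over all spots and -0.049 with the deposited log2 values, Slc32a1 -0.029, -0.029 and -0.030, and Pvalb -0.0089, -0.0089 and -0.0099, while Sst gave 0.039 under median scaling. Leaving out single mice gave -0.054 to 0.11 for Gad2, -0.065 to 0.14 for Slc32a1, -0.0091 to 0.19 for Pvalb and -0.097 to 0.063 for Sst. At 3 months Slc32a1 gave 0.096 with dim spots kept or the percentile over all spots, 0.0022 under median scaling and 0.045 with the deposited values, and Pvalb 0.097, 0.0038 and 0.046, and 0.037 as the mean of its probes. Calb2 gave -0.092 after normexp. Single mice left out gave -0.082 to 0.028, -0.19 to 0.12 and -0.11 to 0.17 for these genes. At 12 months Calb2 gave -0.086 after normexp, -0.033 with the deposited values and -0.19 with the row as a block, and Reln 0.095 under median scaling and 0.24 under quantile normalization, with -0.19 to 0.17 and -0.31 to 0.11 when single mice were left out. Relative to Gad2 at 1 month, normexp turned Slc32a1 to -0.0076 and Pvalb to -0.018. At 3 months it turned Reln relative to Gad1 from 0.13 to -0.29 and relative to Gad2 from 0.36 to -0.053.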
